A study of Mus musculus with 8 samples.

Results

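The genes of the ubiquitin and proteasome system were followed in the brains of mutant mice. They were chosen by symbol alone, with no measured value: symbols that begin with Psma, Psmb, Psmc, Psmd, Psme, Ube2 or Uchl, or with Usp or Cul followed by a digit. Psmb8 and Ube2o were left out. This gave 82 of 8653 named genes, on 122 of 12131 named spots. Of these, 37 carry proteasome symbols, 17 are conjugating enzymes or their relatives, 25 are deubiquitinases or their relatives and 3 are cullins. Psmc3ip and Psme3ip1 share the prefix of proteasome genes but encode proteins that are not subunits. There was no filter on low values. A gene needed a spot with values on all 8 arrays, which 80 of the 82 had.

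Ubiquitin is a small protein that cells attach to other proteins. An activating enzyme (E1) charges it, a conjugating enzyme (E2, the Ube2 genes) carries it, and a ligase (E3, often built on a cullin) places it on the substrate, while deubiquitinases take it off again. Chains of ubiquitin can send a protein to the proteasome. Its barrel, the 20S core, is made of alpha rings (Psma) around beta rings (Psmb) that hold the cutting sites. The 19S cap is made of ATPases (Psmc) that unfold the substrate and of non-ATPase subunits (Psmd), and other activators (Psme) can take its place. In neurons the system turns over synaptic proteins, and Uchl1 is among the abundant neuronal proteins.

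The mutants (n = 4, males, 19 weeks old) are labelled ADAR-/- and GluR-B R/R. They lack ADAR2, the RNA-editing enzyme encoded by Adarb1, and both their Gria2 alleles carry an arginine codon in GluR-B, a subunit of AMPA receptors, where ADAR2 otherwise makes that change by editing the RNA. As control served pooled brain RNA of wildtype males, also 19 weeks old, which carry neither change. The series' design counts 4 mice in the pool and the labelling protocol names another number. Each mutant brain was hybridised on 2 two-colour cDNA arrays, with the mutant in Cy5 on the first and in Cy3 on the second, so the mouse is the replicate and the pool is a single control sample. Tests against it therefore hold no spread between wildtype animals. The labels used here name no strain background. The values are ratios, so the tissue cannot be checked against its markers, and in whole brain fewer cells of a type cannot be told apart from less RNA per cell.

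The labels name the dye of each RNA but not the numerator of the deposited log2 ratio, so no direction of mutant against wildtype is given below. The results rest on 2 quantities, both after each array's median was subtracted. The mean ratio averages the arrays of a mouse, and it contrasts mutant and pool if the same RNA is the numerator throughout. The swap component takes the Cy5 array of the mutant minus its Cy3 array and divides the difference by 2. It gives mutant over pool if every ratio is Cy5 over Cy3. For any gene the other quantity is then the dye effect. A gene is called where limma's adjusted p, over all 15804 features tested (genes, and spots without a name), is below 0.05. Standard errors (SE) are limma's moderated ones, over 4 mice. Every gene name depends on reading the annotation 11 spots away from the value row, an offset that was found in the values themselves.

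The arrays held 20211 to 20559 usable values out of 20794 spots, and their number limits the precision. The spread of values was wider on arrays with the mutant in Cy3 (SD 1.04 to 1.32) than on those with the mutant in Cy5 (SD 0.812 to 0.852). Adarb1, the gene deleted in the mutants, has 3 spots. In the swap component 2 of them were among the 8 lowest of 18797 spots, at -1.33 ± 0.267 (SE; limma adjusted p = 0.0424) and -1.23 ± 0.163 (adjusted p = 0.0383). The other spot was at -0.10 (adjusted p = 0.628). In the mean ratio the same 3 spots gave 0.26, 0.70 and 0.12, and the spot at 0.70 was called (adjusted p = 0.0226). Which part of the transcript each spot covers is not known here, so the spots check the labels only in part and do not settle the direction.

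The start of the proteasome genes can be shown as sequence, because many of these genes carry an element through which the transcription factor Nfe2l1 (NRF1) drives them together. Its core, the antioxidant response element, was searched as TGACNNNGC on both strands of the 250 bases before each RefSeq start (GRCm38.p6). Promoters were found for 70 of the 82 genes (83 windows). The core was in the windows of 4 of 32 proteasome genes with a promoter, which are printed here 5′ to 3′ on the gene's strand with the match in capitals.
Psmb5, chr14:54617998-54618078, minus strand: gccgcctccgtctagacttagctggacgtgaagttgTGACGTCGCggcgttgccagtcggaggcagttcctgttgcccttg
Psmb6, chr11:70525312-70525356, plus strand: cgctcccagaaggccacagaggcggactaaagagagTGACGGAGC
Psmc6, chr14:45329574-45329641, plus strand, match on the opposite strand: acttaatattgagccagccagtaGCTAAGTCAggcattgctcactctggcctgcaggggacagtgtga
Psmd9, chr5:123228123-123228189, plus strand: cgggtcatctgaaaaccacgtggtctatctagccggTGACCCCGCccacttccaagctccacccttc
Of these genes, Psmb5, Psmb6 and Psmc6 had called positive mean ratios, given below, and Psmd9 had a negative mean ratio that was not called. Of all 37 proteasome genes, 40.5% were called positive, against 18.7% of all features. The calls of Psmb5, Psmb6 and Psmc6 were lost with the values as deposited, before array medians were subtracted. A link between match and ratio was not tested. The core was also in 10.2% of all 32851 windows of the same length, against 9 of the 83 windows of the members. In all, 6 motifs were searched in this way. The stricter TGACTCAGC, which contains the core, was in 0.390% of all windows and in none of the 32 proteasome genes. CCAAT, the box bound by NF-Y, was in 33.8% of all windows, in 26.5% of the members' windows and in 14 of the 32 proteasome genes. CCGGAAG, a site of ETS factors, was in 6.91% of all windows, in 26.5% of the members' windows and in 10 of the 32 proteasome genes, 6 of 15 conjugating enzyme genes and 4 of 20 deubiquitinase genes. CACGTG, the E-box, was in 6.02% of all windows and in 5 of the 32 proteasome genes, and TGACGTCA, the cAMP response element, was in 1.55% and in none. A gene can have several windows, so counts of genes are not on the same footing as shares of windows. Base composition was not matched between these sets, and a match is a description of letters.

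Over the 80 genes tested, 32 were called with a positive mean ratio, against 18.7% of all features. Only Psmc3ip and Usp21 were called with a negative mean ratio, against 15.1% of all features. The median mean ratio of the 80 genes was 0.31, and that of all features was -0.06. Among all 8107 named genes tested, 1593 were called positive (19.6%) and 954 negative (11.8%), with a median of 0.02. By family, 15 of 37 proteasome genes (40.5%), 7 of 17 conjugating enzymes (41.2%), 9 of 23 deubiquitinases (39.1%) and 1 of 3 cullins were called positive.

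The subtraction of array medians sets where 0 lies. With the values as deposited, 21 members were called positive, against 12.5% of all features, and 5 were called negative, against 21.6%. The positive share of the members' calls was then 80.8%, where it was 94.1% after subtraction. Over all features it was 36.7% and 55.3%, and the median of all features moved from -0.06 to -0.22. The 11 positive calls lost were Psmb5, Psmb6, Psmc6, Psmd5, Psmd11, Psme4, Ube2d1, Ube2l3, Usp19, Usp38 and Usp54. The 5 negative calls were Psmc3ip, Psmd7, Psmd9, Usp3 and Usp21. The sign of 9 members, none of them called, differed from that after subtraction. The median over the 23 deubiquitinases, 0.16 after subtraction, was -0.0045 as deposited, while those of the proteasome (0.45 and 0.29) and of the conjugating enzymes (0.35 and 0.18) stayed above 0. Leaving out a mouse left between 18 (without mouse 3) and 24 (without mouse 1) members called, and 22 without mouse 4. All of these calls were positive, and without mouse 2 it was 21 of 23. Over all features the count of calls fell from 5354 to between 3104 and 4053.

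**Figure D1:**
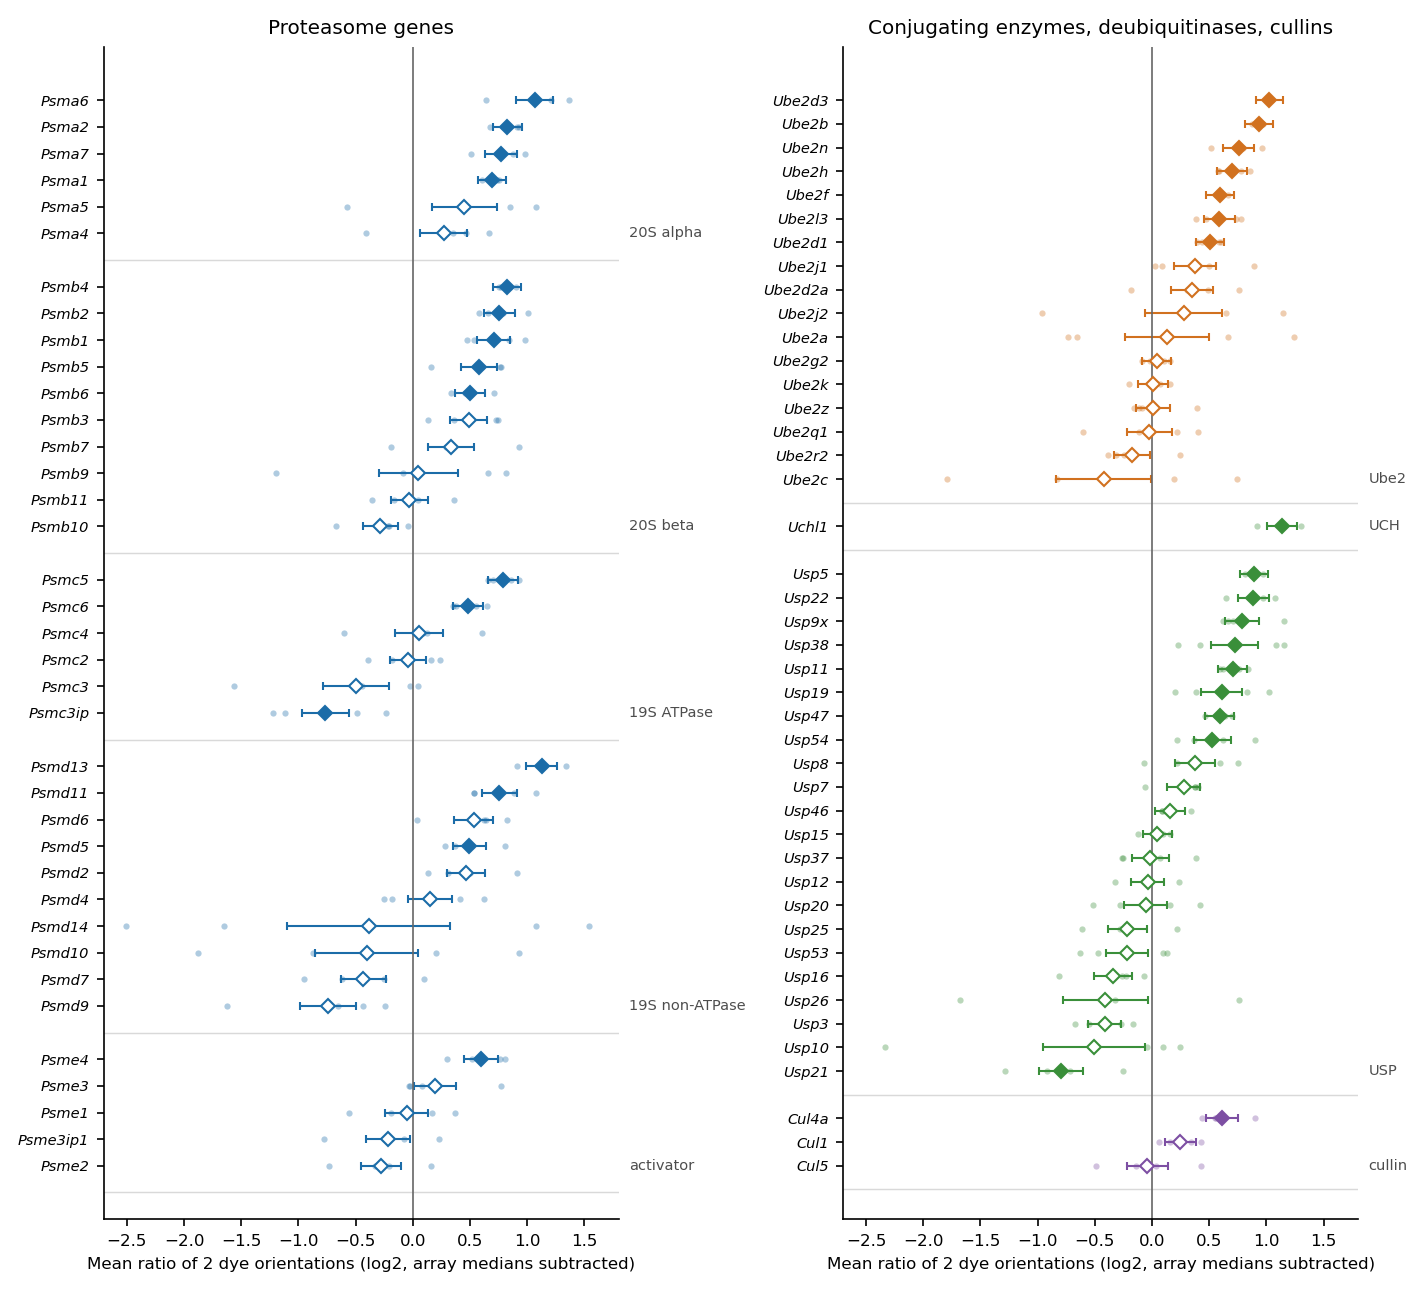
Mean ratio of each of the 80 genes tested (diamond, with the moderated SE of limma) on the log2 scale with array medians subtracted, and the values of the 4 mice (pale points), ordered within each family. Filled diamonds mark the 32 positive and 2 negative calls (adjusted p below 0.05), and the 20S core subunits other than Psmb9, Psmb10 and Psmb11 all lie above 0.

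The positive values came mostly from the arrays with the mutant in Cy3. On those 4 arrays alone 36 members were called positive, against 20.1% of all features, and Psmd9 was called negative, against 14.5%, and the median of the 80 genes was 0.62. With the mutant in Cy5 (4 arrays alone) no member and no other feature was called, and the members' median was 0.06. At an unadjusted p below 0.05, 9 of the 80 members were positive and 6 negative there, where 1675 and 2191 of all 15804 features were. There 18 members, none of them called in the mean ratio, had the opposite sign to their mean ratio. Counted by sign, 44 of the 80 genes were positive on all 4 Cy3 arrays, against 28% of all features, and 21 on all 4 Cy5 arrays, against 18.9%. All 8 arrays were positive for 18 genes, against 12.3%, and negative for Psmc3ip alone, against 9.11%. For 30 genes every array with the mutant in Cy3 lay above every array with the mutant in Cy5, against 15.8% of all features, and for none did it lie wholly below, against 5.64%.

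**Figure D2:**
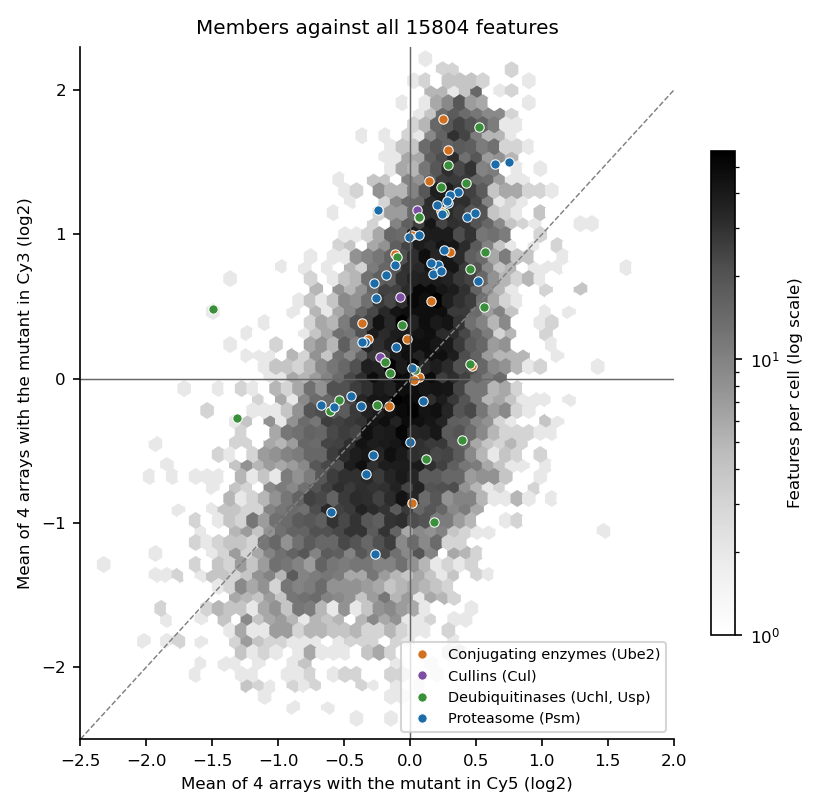
Mean of the 4 arrays with the mutant in Cy5 (horizontal axis) against the mean of the 4 arrays with the mutant in Cy3 (vertical axis), in log2 ratios with array medians subtracted, for the 80 genes (coloured points) over all 15804 features (grey cells, log scale; the axes leave out the most extreme features). The dashed line marks equal values. Of the 80 genes 64 lie above it, against 8170 of all 15804 features. On the vertical axis 60 of the 80 genes lie above 0, against 7329 of all features.

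The 20S core gave the most even picture. Its 6 alpha subunits all had mean ratios above 0, with 4 called (Psma1, Psma2, Psma6 and Psma7) and a median of 0.73. The median over these 6 genes was 0.68, 0.73, 0.77 and 0.78 in mice 1 to 4. Of the 10 beta genes 5 were called (Psmb1, Psmb2, Psmb4, Psmb5 and Psmb6), with a median of 0.50. The alpha and beta subunits of the standard core, 13 genes, all lay above 0, 9 of them called, with a median of 0.69. This group was formed after the values were seen. Over all features 18.7% were called positive, and 7331 of 15804 lay above 0.

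Psma6, an alpha subunit, was the largest of the core. With the mutant in Cy5 its log2 ratios in mice 1 to 4 were 0.53, 0.76, 0.26 and 1.01, and with the mutant in Cy3 they were 1.58, 1.65, 1.01 and 1.71. All 8 were positive, and the 2 orientations met only at mouse 4's Cy5 array and mouse 3's Cy3 array. The mean ratio was 1.06 ± 0.162 (SE, n = 4; adjusted p = 0.00713), which is a factor of 2.09. Psma2 gave 0.33, 0.39, 0.38 and 0.35 with the mutant in Cy5 and 1.50, 1.46, 1.20 and 1.004 with it in Cy3. Each orientation was thus narrow and the 2 did not overlap. Its mean ratio was 0.83 ± 0.127 (adjusted p = 0.00716), but 0.43 and no longer called with runs of 48 spots centred (adjusted p = 0.0566). Psma7 was less even, at 0.04, -0.03, 1.42 and 0.30 with the mutant in Cy5 and 0.98, 1.50, 0.54 and 1.46 with it in Cy3, so the orientations overlapped through mouse 3. Its mean ratio was 0.77 ± 0.140 (adjusted p = 0.0107). Psma1 followed at 0.69 (adjusted p = 0.0100). Psma5 (0.45, adjusted p = 0.260) and Psma4 (0.27, adjusted p = 0.343) were not called: mouse 1 was at -0.57 for Psma5 and mouse 4 at -0.41 for Psma4, while the other 3 mice were positive for each.

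Among the beta subunits, Psmb4, which helps to hold the barrel together, gave 0.41, 0.38, 0.61 and 0.57 with the mutant in Cy5 and 1.28, 1.17, 1.19 and 0.94 with it in Cy3. No mouse stood apart. The mean ratio was 0.82 ± 0.122 (adjusted p = 0.00683), and its 2 spots gave 0.78 and 0.86. Psmb2, another structural subunit, gave 0.04, 0.44, 0.23 and 0.45 and then 1.53, 1.57, 0.92 and 0.86, with a mean ratio of 0.75 ± 0.137 (adjusted p = 0.0107). Psmb1 gave 0.55, -0.14, 0.37 and 0.05 and then 1.41, 1.20, 1.31 and 0.90, with a mean ratio of 0.71 ± 0.147 (adjusted p = 0.0157). For both genes every Cy3 array exceeded every Cy5 array. Without mouse 3 Psmb1 was no longer called (adjusted p = 0.0611).

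The cutting subunits could be followed next to the versions that replace them. Psmb5 and Psmb6 hold the chymotrypsin-like and caspase-like sites of the standard core, and both were called, at 0.58 ± 0.157 (adjusted p = 0.0356) and 0.50 ± 0.132 (adjusted p = 0.0318). As deposited neither was called (0.41, adjusted p = 0.0777, and 0.34, adjusted p = 0.100). These are 2 of the genes whose promoters are printed above. Psmb7, with the trypsin-like site, was at 0.34 (adjusted p = 0.235): mouse 1 was at 0.93 and mouse 3 at -0.19. Psmb9 and Psmb10 replace Psmb6 and Psmb7 in the immunoproteasome, and Psmb11 replaces Psmb5 in the thymus. None of these 3 was called. Psmb10 was at -0.29 ± 0.153 (adjusted p = 0.193), below 0 in 4 of 4 mice. Psmb9 was at 0.05 with mice 1 to 4 at -1.20, -0.08, 0.81 and 0.66, and Psmb11 was at -0.03. The median of the 13 standard subunits minus that of these 3 genes was positive in 4 of 4 mice, at 0.725 ± 0.322 (SD, n = 4) on the log2 scale. On the Cy5 arrays of the mutant the difference was positive in 3 of 4 mice, at 0.381 ± 0.379, with mouse 3 at -0.152. On the Cy3 arrays it was 1.13 ± 0.966. Both groups were formed after the values were seen, and the beta genes below 0, Psmb10 and Psmb11, are in the smaller one. The difference was not tested, since a median over 3 genes has no error of its own here.

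The 19S ATPases split. Psmc5 gave 0.40, 0.09, 0.30 and 0.41 with the mutant in Cy5 and 1.46, 1.23, 1.11 and 1.31 with it in Cy3. The mean ratio was 0.79 ± 0.128 (adjusted p = 0.00820), and its 3 spots were each called, at 0.61, 0.67 and 1.09. Psmc6 gave 0.12, 0.32, 0.08 and 0.13 and then 1.19, 0.38, 1.03 and 0.62, with a mean ratio of 0.48 ± 0.131 (adjusted p = 0.0346). It was no longer called without any of the 4 mice in turn (adjusted p = 0.0748 to 0.106) or with the values as deposited (adjusted p = 0.103), with runs of 48 spots centred (adjusted p = 0.0790) or with arrays scaled to the same spread (adjusted p = 0.0553). Psmc2 (-0.04), Psmc4 (0.05) and Psmc3 (-0.50, adjusted p = 0.224) were not called, and for Psmc3 mouse 4 alone was at -1.57. Psmc3ip, the gene that shares the prefix, encodes a protein of meiotic recombination. It gave -0.81, -0.17, -0.61 and -0.82 and then -0.16, -0.29, -1.64 and -1.63, with a mean ratio of -0.77 ± 0.208 (adjusted p = 0.0350). It was not called without mouse 1, 3 or 4 (adjusted p = 0.0533 to 0.114), and with runs of 48 spots centred it was at -0.10 (adjusted p = 0.657).

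Of the 10 non-ATPase genes, 3 were called, all positive (18.7% over all features), and the median was 0.31. Psmd13 was the largest: 0.72, 0.51, 1.03 and 0.75 with the mutant in Cy5 and 1.96, 1.31, 1.17 and 1.56 with it in Cy3. This gene of the lid was at or above 0.51 on all 8 arrays. On average the ratio was 1.13 ± 0.135 (adjusted p = 0.00559), a factor of 2.18. Psmd11, a lid subunit whose level can limit the assembly of whole proteasomes, gave -0.16, -0.10, 0.40 and 0.98 and then 1.23, 1.16, 1.36 and 1.18. The Cy3 arrays were even and the Cy5 arrays were not. Its mean ratio was 0.76 ± 0.153 (adjusted p = 0.0145), no longer called without mouse 3 (adjusted p = 0.0571) or mouse 4 (adjusted p = 0.0515), as deposited (adjusted p = 0.0514) or with scaled arrays (adjusted p = 0.0526).

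Psmd5, Psmd9 and Psmd10 are chaperones that assemble the base of the cap and leave the finished particle. Psmd5 gave 0.57, 0.06, 0.05 and 0.27 and then 1.03, 0.98, 0.52 and 0.46, with a mean ratio of 0.49 ± 0.144 (adjusted p = 0.0437), and was not called without any 1 of the mice (adjusted p = 0.0764 to 0.130), as deposited (adjusted p = 0.0909), with runs of 48 spots centred (adjusted p = 0.165), with scaled arrays (adjusted p = 0.0682) or with both arrays required in only 3 mice (adjusted p = 0.0510). Psmd9 was on the other side of 0, at -0.74 ± 0.247 (adjusted p = 0.0626), with 4 of 4 mice negative. Psmd10 was at -0.40 with mice 1 to 4 at -0.87, -1.88, 0.21 and 0.93. Thus the 3 chaperones did not share a sign.

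Among the other lid and base genes, Psmd6 (0.53, adjusted p = 0.0559) and Psmd2 (0.46, adjusted p = 0.0784) were positive in 4 of 4 mice without being called. Psmd4, a ubiquitin receptor, was at 0.15 and Psmd7 at -0.43 (adjusted p = 0.142). Psmd14, the deubiquitinase of the lid, had no steady value. It gave -1.97, -4.02, 3.42 and 0.27 with the mutant in Cy5 and -1.33, -0.99, -0.34 and 1.88 with it in Cy3. In mice 2 and 3 the arrays of the same mouse lay more than 3 log2 units apart.

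Of the activators only Psme4 (PA200) was called. It gave 1.15, -0.07, 0.20 and 0.79 and then 0.47, 0.67, 0.83 and 0.73, with a mean ratio of 0.60 ± 0.146 (adjusted p = 0.0256). The 2 orientations overlapped, and its swap component averaged -0.08, with mice 1 to 4 at 0.34, -0.37, -0.32 and 0.03. The call was lost without mouse 1, 3 or 4 (adjusted p = 0.0703 to 0.0841) and as deposited (adjusted p = 0.0656), and with runs of 48 spots centred the value was 0.93. Psme1 and Psme2, which form the interferon-inducible PA28 ring, were at -0.05 and -0.28, and Psme3, the nuclear PA28 gamma, was at 0.19. Psme3ip1, which encodes a partner of PA28 gamma, was at -0.22, and none of these 4 was called.

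**Figure D3:**
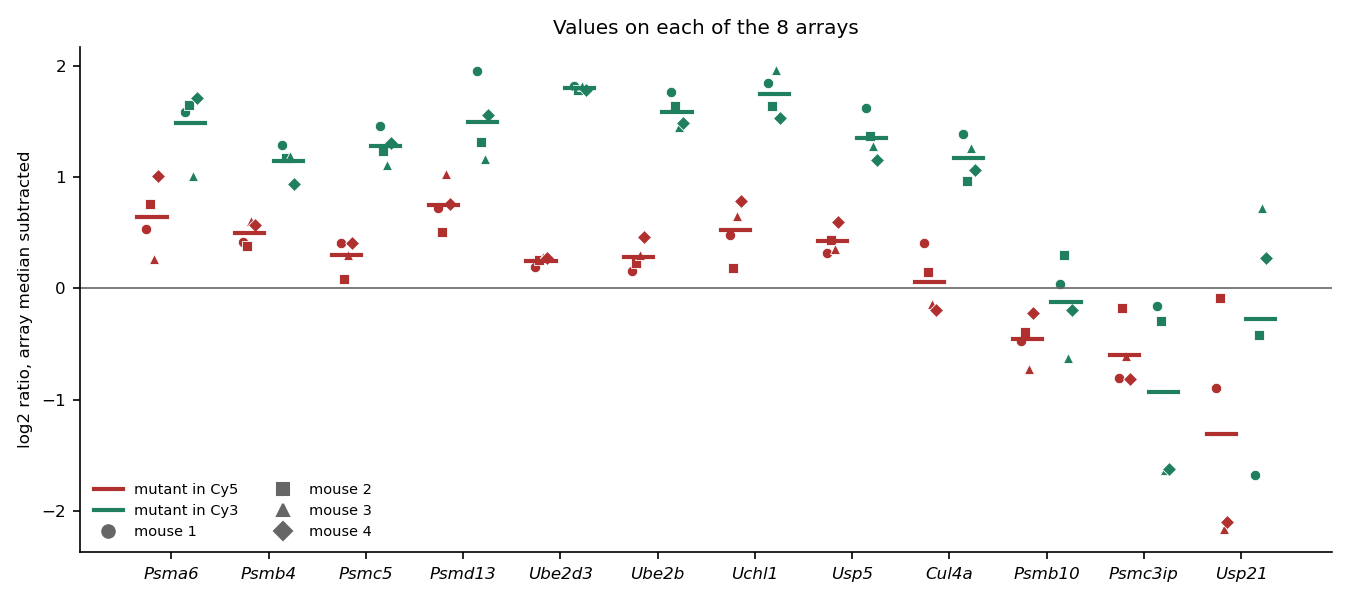
Log2 ratio on each of the 8 arrays (array median subtracted) for 12 genes, with the 4 arrays that carry the mutant in Cy5 in red and those that carry it in Cy3 in green; the symbol marks the mouse and the bar the mean of 4 arrays. Ube2d3 shows the narrowest spread within each orientation and Usp21 a wide one, with mice 3 and 4 near -2 in Cy5 and above 0 in Cy3.

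The conjugating enzymes had 7 positive calls among 17 genes, against 18.7% of all features (Ube2b, Ube2d1, Ube2d3, Ube2f, Ube2h, Ube2l3 and Ube2n). They had no negative call, against 15.1% of all features, and a median of 0.35. Their range ran from -0.42 (Ube2c, which works with the anaphase-promoting complex in mitosis) to 1.03. Ube2d3 is an E2 of broad use that serves many ligases. It gave 0.19, 0.25, 0.28 and 0.27 with the mutant in Cy5 and 1.82, 1.78, 1.82 and 1.78 with it in Cy3. The mice were nearly identical (SD of the mouse means 0.0177), and the orientations were far apart. The mean ratio was 1.03 ± 0.120 (adjusted p = 0.00559), where the SE is set mostly by the spread that limma borrows from other features.

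Ube2b (RAD6B), the E2 of histone H2B and of postreplication repair, gave 0.16, 0.23, 0.30 and 0.46 and then 1.77, 1.64, 1.45 and 1.49. Its mean ratio was 0.94 ± 0.121 (adjusted p = 0.00571; 0.62 with runs of 48 spots centred, still called), and its 3 spots agreed closely, at 0.91, 0.91 and 0.99. Its near copy Ube2a (RAD6A) was at 0.13 with mice 1 to 4 at -0.66, -0.74, 0.67 and 1.24. Ube2n (UBC13), which builds ubiquitin chains used in signalling, gave 0.15, -0.20, 0.22 and 0.42 and then 1.36, 1.23, 1.71 and 1.17, with a mean ratio of 0.76 ± 0.137 (adjusted p = 0.0106). For Ube2b and Ube2n, as for Ube2d3, every Cy3 array lay above every Cy5 array.

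The other called E2 genes lay between 0.51 and 0.70. Ube2h was at 0.70 (adjusted p = 0.0114), Ube2f, an E2 of the ubiquitin-like protein NEDD8, at 0.59 (adjusted p = 0.0150), Ube2l3, the partner of parkin, at 0.59 (adjusted p = 0.0226) and Ube2d1 at 0.51 (adjusted p = 0.0268). Among the 10 genes not called, Ube2j1 and Ube2j2, the membrane-bound E2 enzymes of the endoplasmic reticulum, were at 0.37 and 0.28, and Ube2g2, which serves the same quality control, at 0.04. Cross-hybridisation between near-identical copies such as Ube2a and Ube2b, or Ube2d1, Ube2d2a and Ube2d3, cannot be judged here, since the sequences of the cDNA probes were not used.

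Uchl1, the ubiquitin C-terminal hydrolase of neurons, had the largest mean ratio of the 80 genes, though within the SE of that of Psmd13. It gave 0.48, 0.18, 0.65 and 0.78 with the mutant in Cy5 and 1.84, 1.64, 1.96 and 1.53 with it in Cy3. All 8 arrays were positive and the orientations did not overlap. The mean ratio was 1.13 ± 0.133 (adjusted p = 0.00559), a factor of 2.19. Neuronal marker genes ran from -0.10 (Map2) to 1.13 (Syp), with a median of 0.82 and medians per mouse of 0.66 to 0.98. Of these 7 genes 5 were called positive, against 18.7% of all features. Astrocyte markers had 5 of 7 positive calls (median 0.86, 0.68 to 1.16 per mouse) and oligodendrocyte markers 3 of 5 (median 0.60, 0.42 to 0.71 per mouse). Of 4 microglial markers C1qb was called positive (0.94) and Aif1 (-0.96) and Ptprc (-0.89) negative. Of the blood genes Hba-a1 was called positive (0.94) and Alas2 negative (-1.24). The part of cell composition in the members' values was not tested.

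The ubiquitin-specific proteases (USP) had 8 positive calls and 1 negative call among 22 genes (18.7% and 15.1% over all features). Their median was 0.10. Usp5, which takes apart free ubiquitin chains, gave 0.31, 0.44, 0.35 and 0.60 and then 1.62, 1.36, 1.28 and 1.16. This gave a mean ratio of 0.89 ± 0.122 (adjusted p = 0.00599), and 0.49 with runs of 48 spots centred, still called. Usp22, the deubiquitinase of the SAGA complex, gave 0.05, 0.09, 0.22 and 0.81 and then 1.89, 1.21, 1.47 and 1.34, with a mean ratio of 0.88 ± 0.136 (adjusted p = 0.00716). Both had positive values on all 8 arrays.

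The other positive calls were Usp9x (0.78, adjusted p = 0.0119), Usp38 (0.72, adjusted p = 0.0389), Usp11 (0.70, adjusted p = 0.0106), Usp19 (0.61, adjusted p = 0.0454), Usp47 (0.59, adjusted p = 0.0165) and Usp54 (0.53, adjusted p = 0.0484). Usp54 and Usp53 are relatives counted among the USP genes by their symbols, and Usp53 was at -0.22. Usp21 gave -0.89, -0.09, -2.17 and -2.10 with the mutant in Cy5 and -1.68, -0.42, 0.73 and 0.27 with it in Cy3. Mice 3 and 4 thus changed sign with the dye. The mean ratio was -0.79 ± 0.193 (adjusted p = 0.0253), no longer called without mouse 1, 3 or 4 (adjusted p = 0.0633 to 0.0826). Of those not called, Usp3 was at -0.42 (adjusted p = 0.0726) with 4 of 4 mice negative, and Usp10 was at -0.51, with its Cy5 array in mouse 3 at -4.85. Usp4 and Usp39, the 2 members not tested, lacked values on 1 or more arrays, and Usp39 ranged from -5.27 to 2.05 over its 2 spots.

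Of the cullins, the scaffolds of the largest family of ligases, Cul4a was called. It gave 0.41, 0.15, -0.14 and -0.20 with the mutant in Cy5 and 1.39, 0.96, 1.26 and 1.07 with it in Cy3, with a mean ratio of 0.61 ± 0.139 (adjusted p = 0.0203). The orientations did not overlap, and the Cy5 arrays lay on both sides of 0. Without mouse 1, 2 or 3 it was not called (adjusted p = 0.0573 to 0.0682), nor with runs of 48 spots centred (adjusted p = 0.0792). Cul1 was at 0.25 (adjusted p = 0.198) and Cul5 at -0.04 (adjusted p = 0.872).

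The families can be set side by side within each mouse, as a description with no test. In the mean ratio the median of the 37 proteasome genes averaged 0.41 ± 0.143 (SD, n = 4) over the mice, that of the conjugating enzymes 0.45 ± 0.110 and that of the deubiquitinases 0.21 ± 0.109. The proteasome median exceeded the deubiquitinase median in 4 of 4 mice, by 0.199 ± 0.0579 (SD), and so did the conjugating enzymes, by 0.234 ± 0.158. Proteasome and conjugating enzymes did not separate: the proteasome median was higher in 1 of 4 mice, with a difference of -0.0351 ± 0.156. The next comparisons use core and cap groups formed after the values were seen. Within the proteasome the 13 standard core genes exceeded the 15 genes of the cap (without Psmc3ip) in 4 of 4 mice, by 0.359 ± 0.187. The same core genes exceeded the USP genes in 4 of 4 mice, by 0.528 ± 0.115. These differences do not depend on where an array's 0 is set. On the Cy5 arrays of the mutant the order against the deubiquitinases depended on how the medians were taken. Within mice the proteasome median exceeded theirs there in 3 of 4 mice, by 0.0773 ± 0.145, with mouse 2 at -0.0507. The conjugating enzyme median exceeded theirs in 4 of 4 mice, by 0.117 ± 0.129, and on the Cy3 arrays by 0.279 ± 0.0790, also in 4 of 4. Taken over genes, the order was reversed on the Cy5 arrays, with medians of 0.0179 for the proteasome, 0.0654 for the conjugating enzymes and 0.120 for the deubiquitinases. Without Psmc3ip and Psme3ip1, a choice made after the values were seen, the proteasome median over genes was 0.46 in place of 0.45. For 6 deubiquitinases, 4 conjugating enzymes and Psme3ip1 the gene value averages spots of opposite sign, as given below. With the lowest numbered spot of each gene alone, the medians over genes were 0.40 (proteasome), 0.51 (conjugating enzymes) and 0.07 (deubiquitinases).

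**Figure D4:**
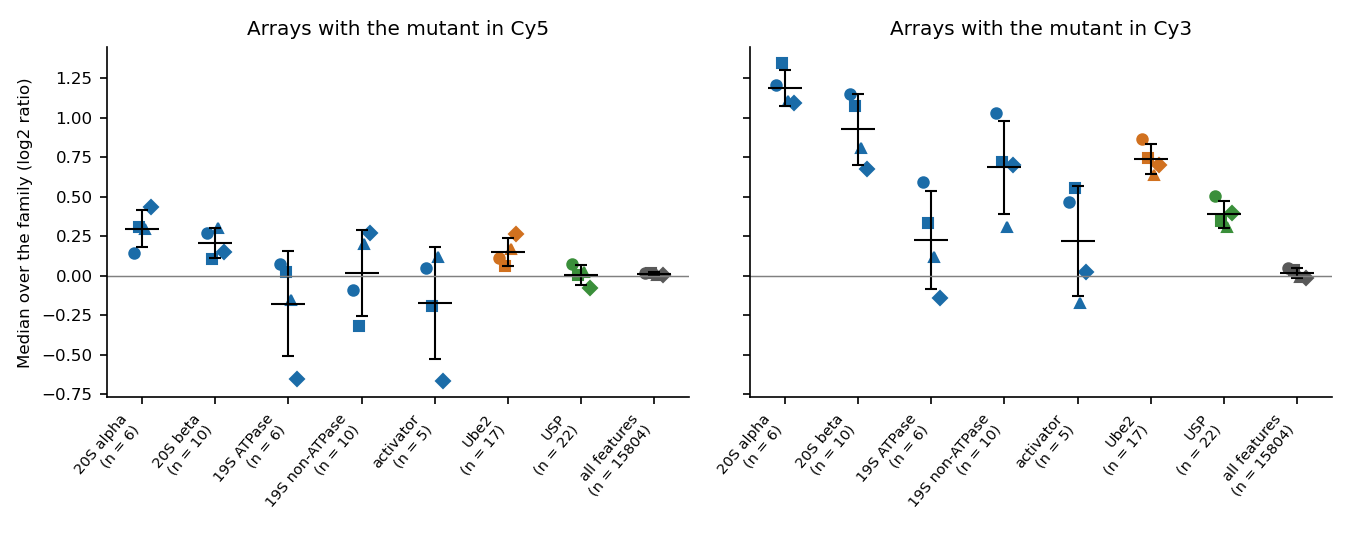
Median log2 ratio over each family in each mouse (symbols as in the plot of the 12 genes: circle, square, triangle and diamond for mice 1 to 4), for the mutant in Cy5 (left) and in Cy3 (right); black bars give the mean and SD over the 4 mice and n the number of genes or features. The 20S families lie highest in Cy3, near 1.19 and 0.93, and at 0.30 and 0.21 in Cy5, while the 19S ATPases and activators spread over the mice. The 19S ATPase group includes Psmc3ip and the activator group Psme3ip1, which do not encode subunits.

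Where a gene has several spots, the spots are a check of its value and of its name. Of 24 genes with 2 or more tested spots, 13 had spots of the same sign and 11 did not. For Psmb4, Psmc5, Psmd11, Ube2b and Ube2h every spot was called positive. Calls in both directions came from 3 genes. The spots of Ube2k (an E2 that builds chains read by the proteasome) were at 0.64, 0.74 and -1.35, so its gene mean of 0.01 describes none of them. Those of Usp12 were at 0.56, 0.56 and -1.23 and those of Usp15 at 0.47, 0.74 and -1.08, and in Usp15 the first of these was not called. Usp47 rested on 1 spot at 1.27, while the other was at -0.09. The remaining genes whose spots differed in sign were Psme3ip1, Ube2a, Ube2r2, Ube2z, Usp37, Usp46 and Usp7. By family, 6 of the 11 were deubiquitinases and 4 were conjugating enzymes, and Psme3ip1 was the only gene with a proteasome symbol. The families differ in how many of their genes have several tested spots. How often the spots of a gene differ in sign over all named genes was not computed. Which exons or gene copies the spots cover is not known here.

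**Figure D5:**
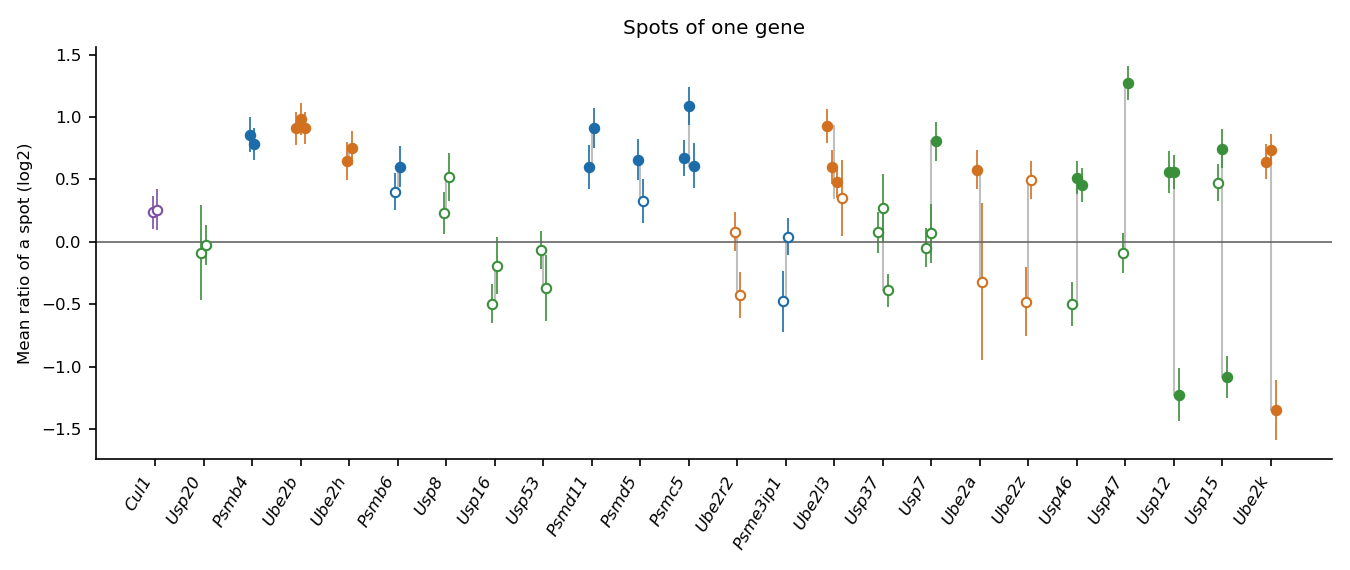
Mean ratio (log2, with the moderated SE of limma) of each spot of the 24 genes that have 2 or more tested spots, ordered by the distance between the lowest and highest spot; filled points were called. The spots of Ube2b, Psmb4 and Ube2h lie close together, and those of Usp12, Usp15 and Ube2k were called on both sides of 0.

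In the swap component, 7 members were called, all negative, against 5.57% of all features, and none was called positive, against 1.27%. At an unadjusted p below 0.05, 37 were negative and 4 positive, where 3014 and 1744 of all 15804 features were. The median of the 80 genes was -0.30, against -0.02 over all features. The 7 were Ube2d3 (-0.78 ± 0.104 SE, adjusted p = 0.0390), Psmd2 (-0.71 ± 0.130, adjusted p = 0.0406), Ube2b (-0.65 ± 0.114, adjusted p = 0.0390), Ube2n (-0.61 ± 0.120, adjusted p = 0.0433), Uchl1 (-0.61 ± 0.118, adjusted p = 0.0432), Cul4a (-0.56 ± 0.114, adjusted p = 0.0463) and Usp47 (-0.53 ± 0.110, adjusted p = 0.0476). Each was negative in 4 of 4 mice. Psmd2, the large scaffold subunit of the cap, is the only proteasome gene among them. It gave -0.01, -0.54, -0.11 and -0.31 with the mutant in Cy5 and 1.83, 1.16, 1.12 and 0.57 with it in Cy3, so its sign followed the dye in all 4 mice. Usp47, the deubiquitinase of DNA polymerase beta, gave 0.27, 0.05, -0.02 and -0.04 and then 1.14, 1.08, 0.94 and 1.32, but of its spots the first had a swap component of -0.19 and the second of -0.87.

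None of these 7 calls outlasted the loss of a mouse. Without any 1 of the 4 mice the count of members called in the swap component was 0, as it was over all features, while 27 to 34 members and 3381 to 4460 features had an unadjusted p below 0.05. It was also 0 with the values as deposited (32 at an unadjusted p below 0.05). By size, the swap component was negative for all 13 standard core subunits, from -0.50 to -0.28, and for 31 of the 37 proteasome genes. Over all features it was negative for 8170 of 15804. The largest positive values were those of Usp26 (0.59, adjusted p = 0.320), Psmd9 (0.48, adjusted p = 0.0923) and Ube2c (0.44, adjusted p = 0.148). The proteasome median over the mice was -0.32 ± 0.098 (SD), that of the conjugating enzymes -0.37 ± 0.0695 and that of the deubiquitinases -0.23 ± 0.0790.

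The list of other genes of the system held 59 measured genes. Of these, 14 (23.7%) were called positive in the mean ratio, against 18.7% of all features. The 3 called negative (5.08%, against 15.1% of all features) were Skp2, Otub2 and Nploc4, and the median of the 59 genes was 0.23. Among ubiquitin-like proteins Sumo2 was at 1.06 ± 0.121 (adjusted p = 0.00559) and Nedd8 at 0.61 (adjusted p = 0.0329), and Nae1, a subunit of the NEDD8-activating enzyme, was at 0.66 (adjusted p = 0.0462). Rbx1, the RING subunit that pairs with cullins, was at 0.96 ± 0.131 (adjusted p = 0.00599), and Ddb1, the adaptor of Cul4a, at 0.73 (adjusted p = 0.00985). Skp2, an F-box protein of Cul1 ligases, was at -0.56 (adjusted p = 0.0462).

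Of 12 measured genes for shuttling, assembly and unfolding, 4 were called positive and 1 negative, against 18.7% and 15.1% of all features. Pomp, the chaperone of core assembly, was at 0.72 ± 0.161 (adjusted p = 0.0195), while Psmg1 (0.23) and Psmg2 (-0.11), which act earlier in that assembly, were not called. Nfe2l1, the factor named with the promoters, was at 0.64 ± 0.135 (adjusted p = 0.0159). Sqstm1 (p62), a carrier of ubiquitinated proteins to autophagy, was at 1.01 ± 0.122 (adjusted p = 0.00559) and Ubqln4, a shuttle to the proteasome, at 0.63 (adjusted p = 0.0135). Vcp, the segregase that pulls ubiquitinated proteins out of complexes, was at 0.29 (adjusted p = 0.156). The others not called ran from Bag6 at -0.39 to Ubqln1 at 0.41. Nploc4, the cofactor of Vcp, was at -0.71 ± 0.206 (adjusted p = 0.0428). In the swap component 5 of the 59 (8.47%, against 5.57% of all features) were called, all negative: Sumo2 (-0.80), Nae1 (-0.73), Sqstm1 (-0.70), Rbx1 (-0.63) and Anapc5 (-0.54). Like those of the members, these calls were lost without any 1 mouse, where no feature was called.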

How the data were processed

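Total RNA of each brain was reverse transcribed, labelled by an indirect method and hybridised to cDNA arrays, per the labels' protocols. For image software, background correction and normalization: not given in the sources used here. Per spot the authors deposited a log2 ratio of the channels. This scale was inferred from weak spots, whose ratios are those of small integers once 1 constant per array is removed. Values equal to log2 of 100000 plus that constant (1 to 30 per array) code an empty denominator and were left out, together with 221 to 553 empty cells an array. Ratios of whole numbers up to 10 (within 0.001) made up 4.76% to 8.73% of values.

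Spots were named by the platform annotation shifted by 11 spots, up to annotated spot 20000. All 82 members were found in the RefSeq gene table under the same symbol. Array medians were subtracted, and spots with values on all 8 arrays (18797) were averaged per gene. The 4 mouse values were tested against 0 with lmFit and eBayes of limma 3.58.1 in R 4.3.3, with Benjamini-Hochberg adjustment over all 15804 features; this step was tested on simulated data. Arrays of the same mouse correlated at 0.257 to 0.392 and arrays of the same orientation at 0.224 to 0.680; no arrays were identical. Members, lists and tests were chosen with earlier results of these data known. Given in full were, per family, up to 3 called members with the largest mean ratio and up to 2 with the largest swap component, of the same sign in 4 mice. Alternatives were the values as deposited, centred runs of 48 spots, arrays scaled to the same median absolute deviation (MAD), other rules for missing and weak spots and for spots of a gene, names without the shift, each orientation alone, and each mouse left out.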

Additional observations from a re-analysis of the deposited data

Results flagged for a closer look

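Of 166 sets of 4 mouse values examined (80 genes and 3 family medians in 2 quantities), 9 held a mouse whose distance to the nearest of the others, as a share of the whole range, passed Dixon's critical value for 4 samples; about 1 in 20 would by chance, and none of the 9 was examined further. In the mean ratio these were Psme3 (mouse 1 at 0.768), Ube2z (mouse 4 at 0.392), Usp10 (mouse 3 at -2.34), Usp46 (mouse 1 at 0.337), Usp7 (mouse 2 at -0.0582) and Usp9x (mouse 3 at 1.15). In the swap component they were Psmb1 (mouse 2 at -0.667), Ube2j2 (mouse 1 at 1.07) and Usp38 (mouse 3 at 0.640). Of these genes Usp9x, Usp38 and Psmb1 were called in the mean ratio, and for Usp9x the other 3 mice lay between 0.62 and 0.70.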

How the results depend on the processing

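Of the genes given in full, the 21 followed through all alternatives in the mean ratio kept their sign wherever they had a value, except with names read without the shift of 11 spots, where Psma7 (-0.44), Psmb4 (-0.47), Psmb1 (-0.73), Psmd13 (-0.52), Psmd11 (-1.12) and Psmd5 (-0.54) turned negative, as did the medians of the proteasome (-0.0644), conjugating enzymes (-0.0381) and deubiquitinases (-0.0913). In the swap component these medians were then 0.10, 0.14 and 0.0089, Usp47 was at 0.21, and 1 member was called. Where only the mutant's Cy5 arrays were used, 0 members and 0 features were called (15 and 3866 at an unadjusted p below 0.05). The medians over genes of the proteasome, conjugating enzymes and deubiquitinases were then 0.0179, 0.0654 and 0.12, the reverse of their order with both orientations. As averages of the medians per mouse they were 0.113, 0.152 and 0.0355, in the same order as with both orientations. With the mutant in Cy3 alone the 3 medians over genes were 0.73, 0.54 and 0.38. As deposited they were 0.29, 0.18 and -0.0045 in the mean ratio and -0.21, -0.19 and -0.0823 in the swap component. Arrays scaled to the same MAD gave a proteasome median of 0.26, and the lowest numbered spot of each gene a conjugating enzyme median of 0.51. Without a mouse in turn, members called in the mean ratio numbered 18 to 24 and features 3104 to 4053, and the conjugating enzyme median was 0.21 (without mouse 3) to 0.49 (without mouse 4). Calls in the swap component fell from 7 members and 1081 features to 0 and 0 without any 1 mouse, as deposited, with centred runs of 48 spots (conjugating enzyme median -0.39) and with scaled arrays (at an unadjusted p below 0.05, 24 to 36 members and 3141 to 4818 features), and to 2 and 523 with both arrays in at least 3 mice. The cause of these changes was not tested. No spot intensities were used here, so signal over background is unknown.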
